A study of Mus musculus with 14 samples.

Results

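The genes described here encode the proteasome, its activators and the chaperones that assemble it, in mouse liver. Members were chosen by name, as every gene symbol in the count files made of Psm, a letter from a to g and a number, plus Pomp, with the immunoproteasome genes Psmb8, Psmb9 and Psmb10 left out. This gave 46 of 24411 genes. They comprised 8 genes of the alpha ring and 8 of the beta ring of the 20S core, 6 ATPases and 11 other subunits of the 19S cap, 5 activators and inhibitors, and 8 assembly chaperones. Livers came from male littermates aged 5 to 7 months, all carrying floxed Rbbp5 alleles on both chromosomes. WT mice were Rbbp5 flox/flox without Alb-CRE, and LKO mice were Rbbp5 flox/flox with 1 Alb-CRE allele, driven by the albumin promoter of hepatocytes. Sample labels spell the deleted gene RRBP5, while the design text names Rbbp5, a shared subunit of histone H3 lysine methyltransferase complexes. Mice of both genotypes received an intraperitoneal injection of tunicamycin at 0.05 mg/kg in 500 µl of 3% DMSO in PBS, or of that vehicle alone. Livers were collected after 8 h. Tunicamycin blocks N-linked glycosylation and so loads the endoplasmic reticulum (ER) with misfolded protein. There were 3 libraries of each WT group and 4 of each LKO group. LKO vehicle libraries 3 and 4 agree within sampling noise, so their reads were added together as 1 of 13 samples.

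The proteasome is the main protease of the cytosol and nucleus. Its 20S core is a barrel in which rings of beta subunits, held between rings of alpha subunits, carry the peptidase sites of Psmb5, Psmb6 and Psmb7. The 19S cap binds ubiquitin-tagged proteins, and its ATPases unfold them and feed them into the core. ER proteins that fail to fold are drawn back into the cytosol by ER-associated degradation (ERAD), in which the ubiquitin ligase Syvn1 (Hrd1) and its partner Sel1l act, and are then degraded by the proteasome. When proteasome activity falls short, the transcription factor NRF1 (Nfe2l1), cut by the protease Ddi2, is known to induce proteasome genes together through antioxidant response elements in their promoters.

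Libraries held 6507018 to 13519421 reads on the genes' own strand. Of these, 72.5 to 75.5% fell on Rn45s, the ribosomal RNA precursor, so 1704479 to 3551398 reads per library were left for all other genes and 3994 to 8136 for the members. LKO samples stood at 1.9 to 4.15 CPM of Rbbp5 and WT samples at 4.07 to 6.41. CPM are a gene's reads scaled to a common library size with TMM factors. That library size counts the Rn45s reads, so CPM values are lower than they would be over the other genes alone. The library labelled LKO vehicle 1, at 4.15 CPM, was the only LKO sample inside the WT range. Which part of Rbbp5 is floxed is not given in the sources used here, and reads outside it or from other liver cells would not check the deletion. Ddit3, which encodes the ER stress factor CHOP, reached 26.3 and 20.4 CPM in WT tunicamycin 1 and 3, but 1.30 CPM in WT tunicamycin 2 and at most 2.04 CPM in any other sample. Hepatocyte markers were all present in every sample. In these whole-liver samples, fewer cells of a type and less RNA per cell cannot be told apart.

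Promoters from RefSeq (build GRCm38.p6, 250 bases before to 50 after each start site) were found for 38 of the 46 genes, 41 promoters in all. None was listed for Psma8, Psmb1, Psmb2, Psmb7, Psmc3, Psmd3, Psmd7 and Psmg2. The core of the antioxidant response element, TGACNNNGC on either strand, was in 6 of 41 (14.6%), against 12.4% of 32851 promoters of all genes. The 6 genes were Psmb5, Psmb6, Psmc6, Psmd9, Psmd12 and Psme4. Of the 5 that are described by sample below, the element of Psme4 reaches past the start site and is not shown. For the other 4 it is shown in capitals with its flanks on the gene's strand, since NRF1 is known to act through it. The sites are chr14:54618019-54618057 (minus strand, 47 bases before the start of Psmb5), chr11:70525333-70525356 (plus strand, 9 bases before Psmb6), chr14:45329582-45329620 (plus strand, 227 bases before Psmc6, the element on the opposite strand) and chr5:123228144-123228182 (plus strand, 31 bases before Psmd9).
Psmb5: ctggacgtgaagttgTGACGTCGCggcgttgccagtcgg
Psmb6: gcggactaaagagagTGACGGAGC
Psmc6: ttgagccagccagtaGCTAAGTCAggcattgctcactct
Psmd9: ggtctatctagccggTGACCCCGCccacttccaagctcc
The ER stress response element, CCAAT and CCACG with 9 bases between them on either strand, was in 0 of the 41 member promoters and in 39 of 32851 (0.119%). Syvn1, the ERAD ligase, holds one at chr19:6046517-6046565 (plus strand), 44 bases before its start site, shown here with the element in capitals because Syvn1 is one of the genes near the proteasome that passed the test below.
Syvn1: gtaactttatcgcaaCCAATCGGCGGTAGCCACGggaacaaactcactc
Whether a promoter of Sel1l, the other gene that passed, was among those searched is not known here. No result on the ER stress response element is therefore given for Sel1l. CCAAT boxes, part of that element, were in 13 of the 41 member promoters (31.7%), against 37.4% of all. The heat shock element, GAA, TTC and GAA with 2 bases between each, was in 0 of 41 (0.603% of all), and the C/EBP-ATF element TGATGNAA in 1, that of Psmd13 (2.44%, against 3.97% of all). These are matches of letters in short windows.

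Proteasome transcripts stood at unlike levels, in a similar order in every sample. On the length-scaled FPKM values, the highest mean over the 13 samples was 11.6 ± 0.86 (SD) for Psma4 of the alpha ring. Psmb1 of the beta ring followed at 11.1 ± 0.65, then Pomp, the maturation factor of the core, at 9.05 ± 0.72, Psmb6 at 7.69 ± 1.02 and the 19S subunit Psmd8 at 6.98 ± 0.83. Psma4 was above Psmb1 in 11 of 13 samples, Psmb1 above Pomp and Pomp above Psmb6 in 13 of 13. Further down, neighbours were often not separated: Psmb7 (6.29 FPKM) was above Psma7 (6.27 FPKM) in 6 of 13 samples. The median gene of each role stood at 4.96 FPKM in the beta ring, 4.37 in the alpha ring, 3.42 among the ATPases, 2.87 among the other 19S subunits, 2.61 among activators and the inhibitor, and 0.79 among assembly chaperones. The 8 genes of each ring include Psmb11 (0.0002 FPKM) and Psma8 (0.026 FPKM), which lower the ring medians. Pomp was the exception among chaperones, whose other members ranged from 0.447 (Psmg3) to 1.60 FPKM (Psmd5). The order of the 46 genes correlated between samples with a Spearman rho of 0.920 to 0.976 (median 0.956 over 78 pairs of samples, a description across genes that share each library).

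**Figure D1:**
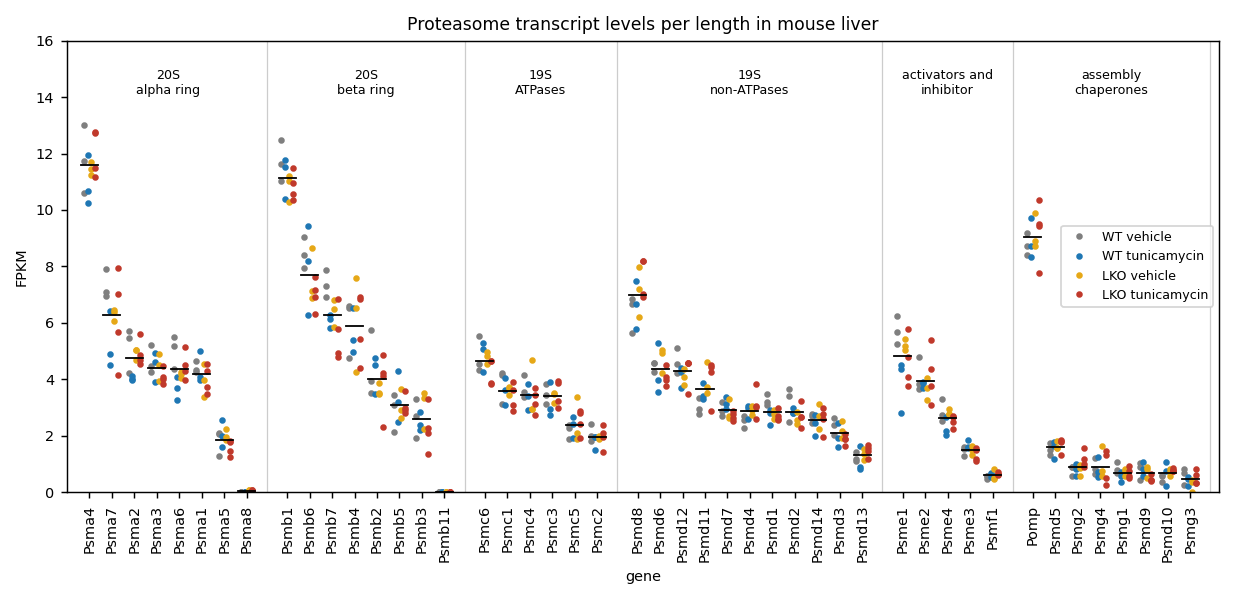
FPKM of each of the 46 proteasome genes (x axis, grouped by role and sorted by mean) in each of 13 samples (points, coloured by group), with the mean over samples as a bar. Psma4, Psmb1 and Pomp stand above 9 FPKM on average in every group except for Pomp in WT (8.77 and 8.91), and assembly chaperones other than Pomp stay at or below 1.83 FPKM in every sample.

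Psmb11, the beta subunit of the thymus, had 0 reads in all 13 samples, which allows up to 0.026 CPM (3 reads over all samples, counting error only). Psma8, the alpha subunit of the testis, had 19 reads in all, and Psmg3, a chaperone of alpha ring assembly, 111. These 3 genes did not pass the filter on low counts, and 43 members were tested. Psmb5, which carries the chymotrypsin-like site, had only 11 to 31 reads per sample, yet stood at 3.08 ± 0.56 FPKM, rank 23 of 46. A copy, Gm3375, matches it at 98.9% over 796 bases, and reads that fit more than 1 place are not in the counts. Matches of at least 95% identity over 500 bases or more were found for 10 members (Psma2, Psma3, Psma4, Psma5, Psmb3, Psmb5, Psmc1, Psmd2, Psmd11 and Psme2), so their levels are uncertain.

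Member transcripts varied little between mice of a group. Their median SD within groups was 0.159 on the log2 CPM scale, against 0.256 over the 9644 genes tested. Counting error alone gives medians of 0.134 and 0.200, so most of the spread of the members was at the level of counting. Psme4, which encodes the activator PA200, had the smallest SD (0.0966) and Psmd10, the chaperone gankyrin, the largest (0.461). Chaperones, with few reads, had a median SD of 0.351. After group means were removed, pairs of members correlated with a median r of 0.095 over 903 pairs, and pairs of all genes with a median of -0.0004, over 13 samples that share each library's scaling.

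Summed over the 46 genes, WT samples stood above LKO samples on the CPM scale. The sums were 646.8, 655.7 and 628.8 CPM in WT vehicle, 623.9, 647.5 and 697.4 in WT tunicamycin, 583.8, 593.9 and 601.0 in LKO vehicle, and 565.5, 564.0, 585.0 and 610.3 in LKO tunicamycin. All 6 WT samples lay above all 7 LKO samples, and within each genotype the tunicamycin and vehicle samples overlapped. On the FPKM scale the genotypes overlapped too. The mean FPKM over the 46 genes was 3.68 ± 0.11 in WT vehicle, 3.42 ± 0.19 in WT tunicamycin, 3.56 ± 0.05 in LKO vehicle and 3.49 ± 0.27 in LKO tunicamycin (SD, n = 3, 3, 3 and 4). As a share of all reads outside Rn45s, members took 0.252% ± 0.006 in WT vehicle, 0.234% ± 0.028 in WT tunicamycin, 0.230% ± 0.002 in LKO vehicle and 0.218% ± 0.018 in LKO tunicamycin. The lower LKO sum therefore depends on the scale, and it was not tested. Markers of other liver cells were measured in the same samples. Of the 6 lists of cell markers, the 5 bile duct markers varied most between samples. They summed to 8.60 to 11.7 CPM in WT vehicle and 17.4 to 55.2 in LKO vehicle, without overlap, and to 8.49 to 42.5 CPM in WT tunicamycin and 35.8 to 110.7 in LKO tunicamycin, with overlap. Spp1 was the highest of the list, at 4.37 to 9.58 CPM in WT vehicle and 12.1 to 51.0 in LKO vehicle. After tunicamycin Spp1 stood at 5.87 to 35.6 CPM in WT and 31.2 to 104.9 in LKO, so the sums mainly follow this gene. Sox9 overlapped between the genotypes with vehicle (1.80 to 3.94 CPM in WT, 3.14 to 4.86 in LKO). Krt19, Krt7 and Epcam stood at most at 0.831 CPM, and each was at 0 in some sample. The 6 genes of stellate cells and fibroblasts were all present in every sample. With vehicle they summed to 63.3 to 104.3 CPM in WT and 110.6 to 150.2 in LKO, without overlap. After tunicamycin they summed to 88.3 to 123.7 CPM in WT and 102.6 to 162.3 in LKO, with overlap. With vehicle Col1a1, Col3a1 and Pdgfrb were higher in LKO without overlap, while Dcn, Lrat and Reln overlapped. Markers of Kupffer cells and macrophages (8 of 8 present) summed to 48.2 to 73.5 CPM in WT and to 38.2 to 116.6 CPM in LKO. Of the lymphocyte markers, 5 of 6 were at 0 in some sample and stood at most at 0.533 CPM. With vehicle the list summed to 3.33 to 5.15 CPM in WT and 5.04 to 5.92 in LKO, with overlap. After tunicamycin it summed to 3.70 to 5.64 CPM in WT and 5.73 to 6.62 in LKO, without overlap. Nearly all of that was Ptprc (3.08 to 6.22 CPM over all samples), so the sum mainly follows this gene. With the other genes of the list near 0, it says little about lymphocytes. The part of these cells in the lower sum was not tested.

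**Figure D2:**
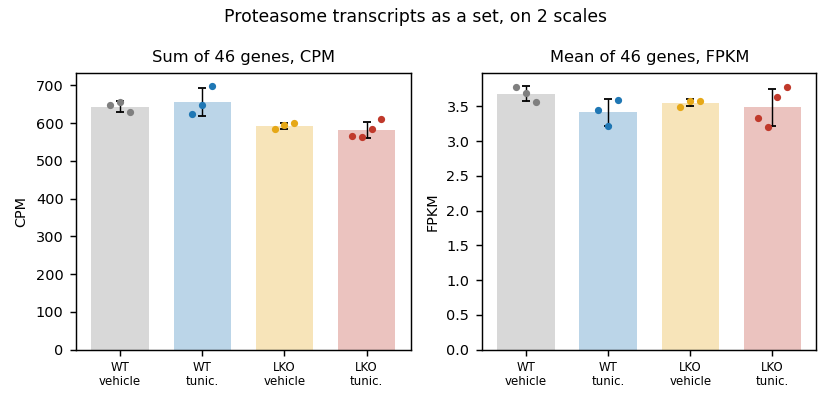
Sum of CPM (left) and mean of FPKM (right) over the 46 proteasome genes in each sample (points), with group means (bars, from 0) and SD (error bars; n = 3, 3, 3 and 4). WT sums of 623.9 to 697.4 CPM lie above LKO sums of 564.0 to 610.3 CPM, while the mean FPKM of the 4 groups overlaps.

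Of the 43 members tested, 0 changed in any of the 5 comparisons, at a Benjamini-Hochberg adjusted p under 0.05 in edgeR's quasi-likelihood test over 9644 genes. In the same test, tunicamycin changed 35 genes (0.363%) in WT and 3 (0.0311%) in LKO, LKO differed from WT in 4 genes (0.0415%) with vehicle and in 83 (0.861%) after tunicamycin, and the interaction gave 0 genes (0%). At these rates, 0 of 43 lies near the background. DESeq2 called 0 of 46 members, and limma on log2(FPKM + 1) 0 of 37, in each comparison. The 46 include Psmb11, which had no reads and so could not be tested. What the data do give is bounds for the groups as sampled, with WT tunicamycin 2, the treated WT sample low in Ddit3, kept in. WT tunicamycin 3 was kept in too, and its counts stood apart from those of its group. Against WT tunicamycin 1 and 2 it gave a chi-square per degree of freedom of 25.9 and 25.8, and those samples gave 6.23 against each other. Without WT tunicamycin 3, edgeR called 615 genes with tunicamycin in WT and still 0 members, so the bounds include the spread it adds. The 95% interval of the fold change lay within 2-fold in either direction for 39 of 43 members with tunicamycin in WT, 41 in LKO, 42 for LKO against WT with vehicle, 41 after tunicamycin and 38 for the interaction. Over all genes tested that share was 72.6%, 84.9%, 80.2%, 77.3% and 60.2%. Within 1.5-fold lay 32, 37, 31, 30 and 24 of the 43, against 33.8%, 48.1%, 44.4%, 39.5% and 21.7% of all genes.

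**Figure D3:**
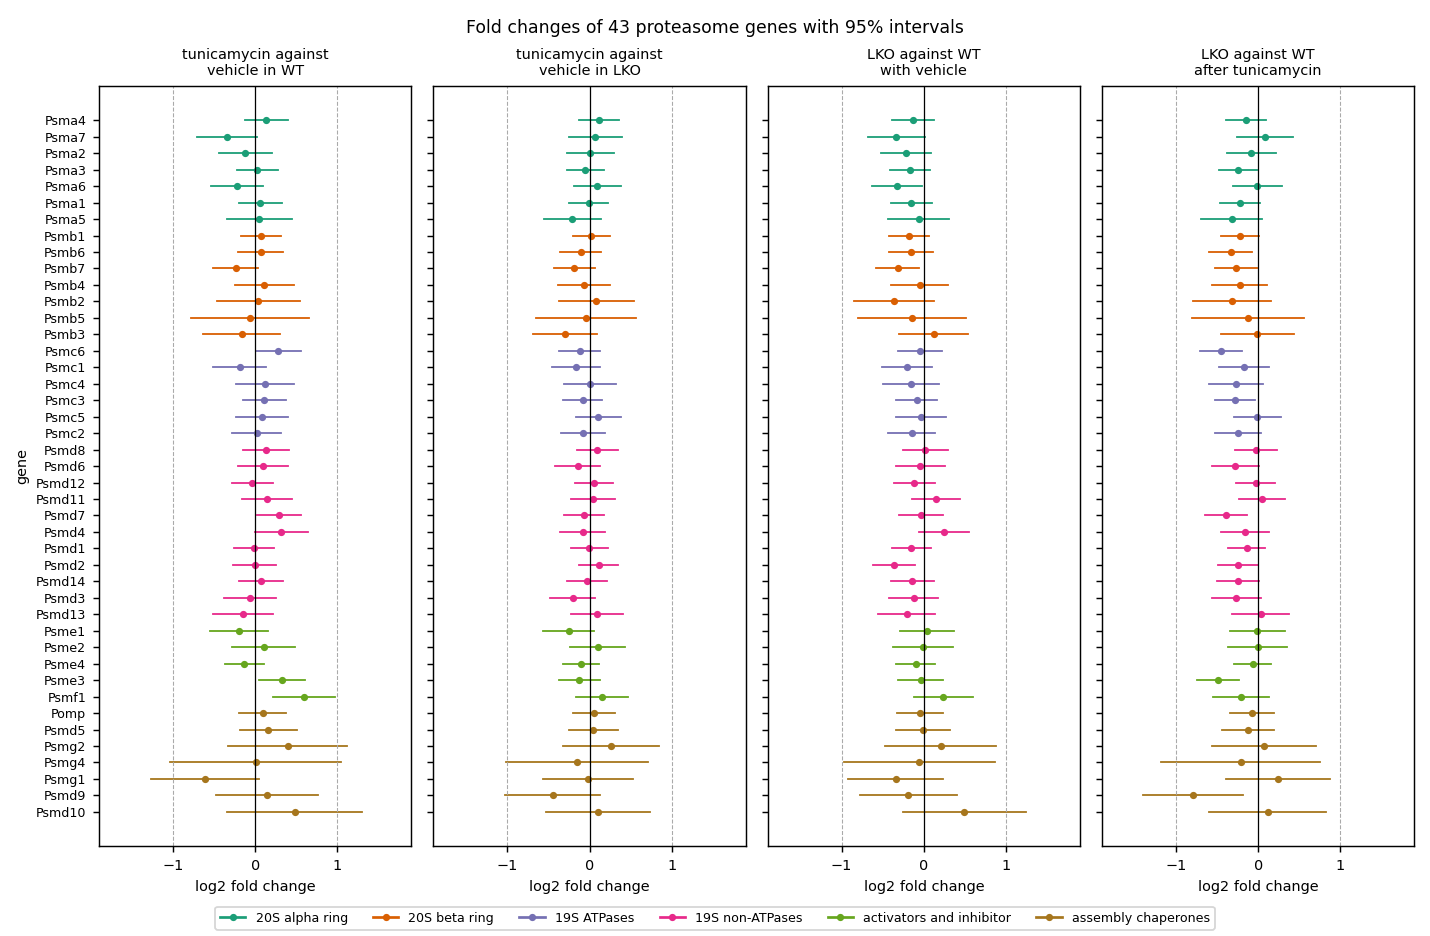
Log2 fold changes (x axis) with 95% intervals of the 43 proteasome genes tested (rows, coloured by role) in 4 comparisons; dashed lines mark 2-fold. Intervals of assembly chaperones other than Pomp and Psmd5 are wide, and 37 of 43 points lie below 0 in the panel of LKO against WT after tunicamycin.

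In WT liver, tunicamycin left the members' median log2 fold change at 0.06, beside 0.01 over all genes tested, and 15 of 43 members lay below 0 (48.3% of all genes). With scaling by total counts the all-gene median shifted to -0.18, the members' median to -0.12, and 36 of 43 lay below 0; relative to all genes the members stood at 0.05 under both scalings. On log2(FPKM + 1) the members' median was -0.07 and that of all genes -0.10, with 68.5% of all genes and 26 of 37 members below 0, so the members stood 0.03 above all genes there too. Relative to all genes the sign turned in 2 of 26 alternatives, to -0.02 without WT tunicamycin 3 and to -0.06 on unfiltered FPKM, where the all-gene median was 0. Without WT tunicamycin 2, the sample low in Ddit3, the members' median was 0.06 and their smallest edgeR adjusted p 0.198. At an unadjusted p under 0.05 there were 5 members, all higher with tunicamycin, among 14.8% of all genes and 7.93% of all genes in that direction. They were Psmf1, the inhibitor, Psme3, an activator, and Psmc6, Psmd4 and Psmd7 of the 19S cap. Of the 20S core 0 of 14 were among them, which lies near the background at 7.93% of all genes. The same 5 were the only members whose groups did not overlap (17.3% of all genes, 8.63% higher). DESeq2 gave 1 member at that unadjusted level and limma on FPKM 6 of 37, neither named nor split by direction here.

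In LKO liver the same treatment gave a median of -0.02 over the members and 0.00 over all genes, with 24 of 43 members below 0 (49.2% of all genes). No member (0 of 43, against 12.2% of all genes) reached an unadjusted p under 0.05 in edgeR, nor did any in DESeq2 or limma. Psmb7 was the only member without overlap between the groups (11.6% of all genes). Expressed as a range, single members lay between -0.45 (Psmd9) and 0.26 (Psmg2) on the log2 scale.

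With vehicle, 35 of 43 members were lower in LKO (49.1% of all genes), and the members' median was -0.11, beside 0.00 over all genes tested. On this scale all 7 alpha ring genes tested and all 6 ATPases lay below 0, with medians of -0.17 and -0.12, while activators stood at -0.01. At an unadjusted p under 0.05 there were 3 members, Psmd2, Psmb7 and Psma6, all lower, among 8.15% of all genes and 3.44% of all genes in that direction. DESeq2 and limma on FPKM gave 2 members each. Groups did not overlap for 8 members, all lower (15.1% of all genes, 7.58% lower): Psma6, Psma7, Psmb1, Psmb7, Psmc2, Psmd1, Psmd2 and Psmd13. The members' median was -0.15 without the library labelled LKO vehicle 1 and -0.03 on log2(FPKM + 1), where 21 of 37 members were lower (43.4% of all genes) and the all-gene median was 0.02.

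After tunicamycin, 37 of 43 members had a negative log2 difference between LKO and WT (52% of all genes), with a median of -0.18 beside -0.01 over all genes tested. By role the medians were -0.26 for the ATPases, -0.23 for the beta ring, -0.16 for the other 19S subunits, -0.15 for the alpha ring, -0.08 for the chaperones and -0.07 for the activators. At an unadjusted p under 0.05 there were 8 members, all lower, among 15.8% of all genes and 8.24% of all genes in that direction: Psme3, Psmc6, Psmd7, Psmd9, Psmb6, Psmc3, Psma3 and Psmb7. DESeq2 gave 5 and limma on FPKM 3 of 37. Without overlap were 8 members, all lower (12.9% of all genes, 6.58% lower), namely Psma3, Psmb6, Psmc6, Psmd3, Psmd7, Psmd9, Psmd14 and Psme3. Total-count scaling moved the all-gene median to 0.14 and the members' to -0.03, which is -0.17 relative to all genes, beside -0.16 with TMM. With that scaling 23 of 43 members were lower (31.1% of all genes). Without WT tunicamycin 3, 28 of 43 members were lower (50.5% of all genes) and their median was -0.13. On log2(FPKM + 1) the members' median was 0.05 and that of all genes 0.07, with 17 of 37 members lower (34.1% of all genes). Relative to all genes the members then stood at -0.02, and at 0.05 on unfiltered FPKM, where the all-gene median was 0. The 2 comparisons of tunicamycin with vehicle and the 2 of LKO with WT share their samples, so their values are set side by side only.

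The interaction, the tunicamycin effect in LKO minus that in WT, had a median of -0.08 over the members and -0.02 over all genes, with 28 of 43 members below 0 (53.5% of all genes). On total counts the members' median was 0.07 beside 0.13 over all genes, and on log2(FPKM + 1) 0.03 beside 0.05. Relative to all genes the members thus stood at -0.05 with TMM, -0.06 on total counts and -0.02 on log2(FPKM + 1), but at 0.03 on unfiltered FPKM and just above 0 when the FPKM column of LKO vehicle 2 was left out. Psme3 and Psmc6 were the 2 members at an unadjusted p under 0.05 (4.91% of all genes, 2.79% negative), both negative. DESeq2 gave 0 and limma on FPKM 1. A difference between the genotypes in how proteasome genes respond was therefore not detectable with these samples.

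In the 20S alpha ring, which forms the gate of the core, Psma4 was the most abundant gene. It stood at 26.3, 34.0 and 30.6 CPM in WT vehicle, 31.2, 37.5 and 31.3 in WT tunicamycin, 26.4, 28.8 and 27.6 in LKO vehicle, and 33.4, 28.0, 28.3 and 30.3 in LKO tunicamycin. The 4 groups overlapped, apart from LKO vehicle, whose samples lay below every WT tunicamycin sample. Its log2 fold changes ran from -0.15 ± 0.12 (SE, LKO against WT after tunicamycin) to 0.14 ± 0.12 (tunicamycin in WT), with edgeR adjusted p of 0.564 and 0.660, and both values changed sign with total counts and on FPKM. The other 6 alpha genes tested lay between -0.34 (Psma7, tunicamycin in WT) and 0.10 (Psma6, tunicamycin in LKO) in the 4 pairwise comparisons. Psma7, chosen after its values were seen, stood at 17, 22.4 and 18.9 CPM in WT vehicle and at 12.7, 13.6 and 19.8 CPM in WT tunicamycin. WT tunicamycin 3 was inside the vehicle range, and without it Psma7 came nearest of all members to the threshold, at a log2 fold change of -0.57 and an edgeR adjusted p of 0.0503.

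In the beta ring, Psmb1, a subunit without a peptidase site, stood at 27.2, 25.1 and 25.7 CPM in WT vehicle and at 23.4, 27.7 and 30.9 in WT tunicamycin. LKO samples stood at 23.3, 22.0 and 23.7 CPM with vehicle and at 22.4, 24.1, 22.2 and 24.8 after tunicamycin. With vehicle the genotypes did not overlap, yet the difference of -0.18 ± 0.11 on the log2 scale had an edgeR adjusted p of 0.723. The 3 catalytic genes differed among themselves. Psmb6, of the caspase-like site, stood at 17, 18.6 and 16.8 CPM in WT vehicle, 17.9, 15.2 and 21.6 in WT tunicamycin, 15.6, 14.4 and 16.9 in LKO vehicle, and 15.2, 14.7, 13.9 and 14.3 in LKO tunicamycin. All 4 LKO tunicamycin samples lay just below the lowest WT tunicamycin sample, with a log2 difference of -0.33 ± 0.12 and an edgeR adjusted p of 0.209.

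Psmb7, of the trypsin-like site, stood at 22.9, 25.2 and 25.4 CPM in WT vehicle and at 16.6, 23.0 and 22.8 in WT tunicamycin, where WT tunicamycin 1 was apart from the other samples. In LKO it stood at 19.2, 18.8 and 20.7 CPM with vehicle and at 17.2, 16.3, 16.7 and 18.7 after tunicamycin. LKO lay below WT without overlap with vehicle (log2 difference -0.32 ± 0.13, edgeR adjusted p 0.524) but not after tunicamycin (-0.27 ± 0.12, adjusted p 0.298). Psmb5 stood at 2.51, 1.67 and 1.75 CPM in WT vehicle, 1.93, 1.78 and 2.01 in WT tunicamycin, 2.49, 1.24 and 1.84 in LKO vehicle, and 1.73, 1.56, 2.45 and 1.19 in LKO tunicamycin. All groups overlapped. Its interval with tunicamycin in WT was -0.78 to 0.66 on the log2 scale, so a 1.5-fold difference was not detectable with so few reads counted.

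Among the 19S ATPases, Psmc6 (Rpt4; chromosome 14, 45329788 to 45349705, GRCm38) had the smallest p. It stood at 22.3, 21.7 and 25.8 CPM in WT vehicle and at 28.1, 26.1 and 30.3 in WT tunicamycin, higher in every treated sample. LKO samples stood at 22.5, 22.9 and 21.8 CPM with vehicle and at 17.1, 19.4, 22.5 and 23.3 after tunicamycin, and these overlapped. The log2 fold change with tunicamycin was 0.28 ± 0.13 in WT (edgeR adjusted p 0.331) and -0.12 ± 0.12 in LKO (0.755). LKO tunicamycin lay below WT tunicamycin without overlap, by -0.45 ± 0.12 (adjusted p 0.0904, from 0.0716 to 0.708 over the alternatives), and the interaction was -0.40 ± 0.18 (adjusted p 0.948).

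Of the 11 other 19S subunits, Psmd1 (Rpn2), a scaffold of the cap, had the highest CPM. It stood at 29.8, 35.1 and 29.2 CPM in WT vehicle, 31.6, 34.0 and 27.6 in WT tunicamycin, 29.0, 28.0 and 27.8 in LKO vehicle, and 28.4, 30.1, 26.2 and 28.2 in LKO tunicamycin. Tunicamycin and vehicle overlapped in both genotypes, with log2 fold changes of -0.01 ± 0.12 and 0.00 ± 0.11. Psmd2 (Rpn1), which docks ubiquitin shuttles, stood at 25.1, 24.9 and 29.2 CPM in WT vehicle and at 20.4, 19.8 and 21.4 in LKO vehicle, apart from each other. After tunicamycin it stood at 25.5, 28.0 and 25.2 CPM in WT and at 20.7, 20.2, 21.4 and 26.3 in LKO, where LKO tunicamycin 4 was inside the WT range. The log2 difference was -0.36 ± 0.12 with vehicle (edgeR adjusted p 0.433) and -0.24 ± 0.12 after tunicamycin (0.323). A pseudogene, Gm5422, matches Psmd2 at 96.4% over 2726 bases.

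Among activators and the inhibitor, Psme4 had the highest CPM and the steadiest. It stood at 65.0, 58.3 and 53.3 CPM in WT vehicle, 56.8, 53.0 and 51.4 in WT tunicamycin, 50.4, 56.1 and 58.2 in LKO vehicle, and 53.6, 48.8, 51.6 and 51.4 in LKO tunicamycin. The groups overlapped in all 4 comparisons. Psme1 (PA28 alpha), whose complex with Psme2 is known from antigen processing, stood at 15.3, 16.3 and 14 CPM in WT vehicle and at 13.2, 10.1 and 16.4 in WT tunicamycin. LKO samples of Psme1 stood at 14.2, 15.2 and 17.3 CPM with vehicle and at 10.9, 12.9, 13.1 and 15.3 after tunicamycin, also with overlap. Its log2 fold change in LKO, -0.25 ± 0.15, had an edgeR adjusted p of 0.523, the smallest of any member in that comparison.

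Psme3 (PA28 gamma; chromosome 11, 101316213 to 101323537), the nuclear activator, was tightly grouped. It stood at 10.2, 12.4 and 10.9 CPM in WT vehicle and at 14.2, 13.8 and 14 in WT tunicamycin, with no overlap. LKO samples stood at 9.36, 12 and 11 CPM with vehicle and at 9.86, 9.24, 9.99 and 10.7 after tunicamycin, and these overlapped. The log2 fold change with tunicamycin was 0.33 ± 0.13 in WT (edgeR adjusted p 0.255) and -0.12 ± 0.12 in LKO (0.743). LKO tunicamycin lay below WT tunicamycin by -0.49 ± 0.12 (adjusted p 0.0714, from 0.0586 to 0.466 over the alternatives), the smallest adjusted p of any member in any comparison. The interaction was -0.45 ± 0.18 (adjusted p 0.935).

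Psmf1 (PI31; chromosome 2, 151715812 to 151744186, GRCm38), named for inhibiting the core in the test tube, had the largest of the tunicamycin differences in WT whose 95% interval excluded 0. It stood at 4.43, 3.84 and 3.94 CPM in WT vehicle and at 6.47, 5.67 and 6.33 in WT tunicamycin, higher in 3 of 3 samples. LKO samples stood at 4.50, 5.69 and 4.21 CPM with vehicle and at 4.66, 5.47, 5.71 and 5.43 after tunicamycin, with overlap. The log2 fold change was 0.59 ± 0.18 in WT (95% interval 0.22 to 0.97, edgeR adjusted p 0.131, from 0.102 to 1 over the alternatives) and 0.15 ± 0.15 in LKO (0.761). The interaction of -0.45 ± 0.23 had an adjusted p of 0.981. On FPKM, Psmf1 stood at 0.523 in WT vehicle and 0.614 in WT tunicamycin on average.

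Of the assembly chaperones, Pomp, which helps close the core and is then its first substrate, was even across groups. It stood at 16.9, 17.7 and 17.6 CPM in WT vehicle, 16.6, 18.2 and 20.8 in WT tunicamycin, 16.1, 16 and 18.3 in LKO vehicle, and 16.8, 19.8, 14.7 and 19 in LKO tunicamycin. All groups overlapped, and its log2 fold changes lay between -0.08 and 0.09. Psmd9, a chaperone of the ATPase ring, stood at 5.75, 5.00 and 2.48 CPM in WT vehicle, 3.16, 5.67 and 6.17 in WT tunicamycin, 4.27, 2.92 and 4.57 in LKO vehicle, and 2.40, 3.12, 2.96 and 2.93 in LKO tunicamycin. LKO tunicamycin samples lay below WT tunicamycin samples, the closest pair at 3.12 and 3.16 CPM. This was the largest difference of any member, -0.79 ± 0.29 on the log2 scale, with an edgeR adjusted p of 0.201 (0.112 to 0.542 over the alternatives). On unfiltered log2(FPKM + 1) the Psmd9 difference was -0.31.

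**Figure D4:**
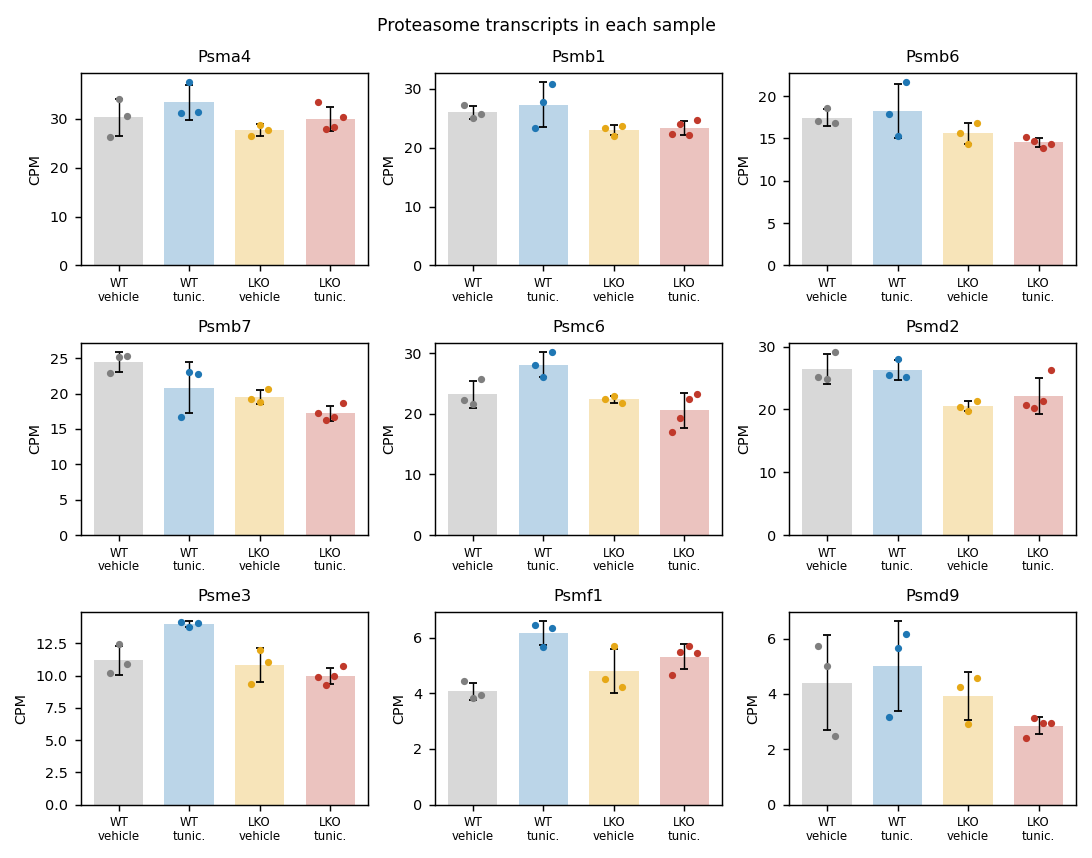
CPM of 9 proteasome genes in each sample (points), with group means (bars, from 0) and SD (error bars; n = 3, 3, 3 and 4). Psmf1, Psme3 and Psmc6 show WT tunicamycin samples above all WT vehicle samples, Psmb7 and Psmd2 show LKO vehicle below WT vehicle, and no difference in the panels passed the adjusted test.

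Of 32 genes around the proteasome with other names, all of which were tested, 1 changed with tunicamycin in WT, 0 in LKO, 0 in LKO against WT with vehicle, 2 after tunicamycin and 0 in the interaction (edgeR, adjusted p under 0.05). Over all genes tested the shares were 0.363%, 0.0311%, 0.0415%, 0.861% and 0%. The 32 genes were chosen with earlier results of these data known, so no excess over these shares is read from their calls. Both of the genes called act in ERAD. Sel1l stood at 67.1, 70.3 and 71.9 CPM in WT vehicle and at 154.5, 90.5 and 124.1 in WT tunicamycin, against 57.2, 66.2 and 68.8 in LKO vehicle and 81.7, 66, 66.3 and 70.0 in LKO tunicamycin. It rose in WT by 0.82 ± 0.16 on the log2 scale (edgeR adjusted p 0.0399) and differed by -0.79 ± 0.15 (0.0240) between the LKO and WT tunicamycin groups. In LKO its log2 fold change was 0.15 ± 0.15 (0.770) and the interaction -0.67 ± 0.22 (0.935). The rise in WT passed in 12 of 26 alternatives and was lost without WT tunicamycin 1, any 1 WT vehicle sample or any 1 LKO tunicamycin sample, with total counts and on FPKM. The difference between genotypes passed in 16 of 26 and was lost without WT tunicamycin 1 or LKO tunicamycin 2, 3 or 4, with total counts and on FPKM.

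Syvn1 stood at 15.4, 14.4 and 22.7 CPM in WT vehicle and at 63.4, 18.3 and 55.7 in WT tunicamycin, so WT tunicamycin 2, the sample low in Ddit3, was within the vehicle range. LKO samples stood at 10.7, 7.52 and 13.5 CPM with vehicle and at 17.3, 10.5, 9.68 and 12.7 after tunicamycin, all below WT tunicamycin. Its log2 difference between LKO and WT after tunicamycin was -1.88 ± 0.32 (edgeR adjusted p 0.0163). That call was lost without WT tunicamycin 1, LKO tunicamycin 3 or LKO tunicamycin 4 and on FPKM, and passed in 19 of 26 alternatives. The tunicamycin difference in WT was 1.40 ± 0.34 (adjusted p 0.0822). It passed in 3 of 26 alternatives, namely DESeq2, no filter on low counts and without WT tunicamycin 2, with adjusted p of 0.000136 to 0.516 over all 26. In LKO it was 0.23 ± 0.34 (adjusted p 0.841) and the interaction -1.16 ± 0.48 (0.935).

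Sel1l and Syvn1 belong to a list of 7 genes around NRF1, which an ERAD-dependent route is known to release from the ER. The other 5 genes of that list (Nfe2l1, Nfe2l2, Ddi2, Ngly1 and Vcp) gave 0 calls in edgeR. Nfe2l1 stood at 32.3, 28.3 and 30.6 CPM in WT vehicle, 33.2, 29.7 and 31.6 in WT tunicamycin, 22.4, 26.9 and 28.6 in LKO vehicle, and 26.6, 27.5, 25.6 and 25.3 in LKO tunicamycin. After tunicamycin LKO lay below WT without overlap, by -0.26 ± 0.11 on the log2 scale (edgeR adjusted p 0.244). Ddi2, the protease that releases NRF1, stood at 14.8, 15.8 and 16 CPM in WT vehicle, 18.2, 19.5 and 16.1 in WT tunicamycin, 12.3, 13.7 and 13.9 in LKO vehicle, and 11.3, 13.4, 14.2 and 12.7 in LKO tunicamycin. Its LKO samples lay below WT samples in both treatments, with log2 differences of -0.21 ± 0.12 with vehicle (adjusted p 0.665) and -0.47 ± 0.12 after tunicamycin (0.0644). For the remaining lists, 0 of 2 other subunits (Adrm1 and Shfm1), 0 of 3 immunoproteasome genes, 0 of 9 associated factors, 0 of 6 ubiquitin genes and 0 of 5 shuttle receptors passed in any comparison, where 0 to 0.861% of all genes did. Among these lists the smallest adjusted p was 0.204 with tunicamycin in WT (Ubqln2, a shuttle receptor, 0.41 ± 0.15), 0.245 for LKO against WT after tunicamycin (Rad23b, another shuttle receptor, -0.27 ± 0.11), 0.328 with tunicamycin in LKO (Ube3c, a ubiquitin ligase of the proteasome, -0.28 ± 0.11) and 0.465 for LKO against WT with vehicle (Txnl1, a thioredoxin bound to the cap, -0.32 ± 0.11).

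**Figure D5:**
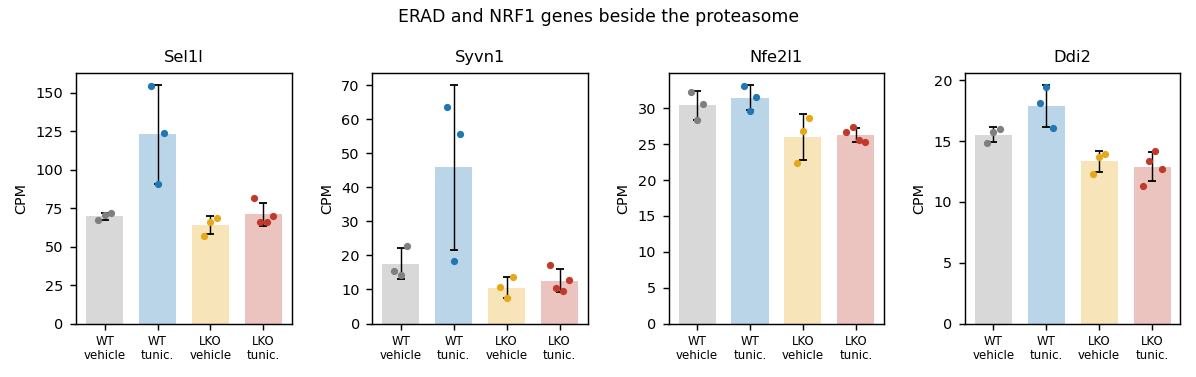
CPM of the ERAD genes Sel1l and Syvn1, of Nfe2l1 (NRF1) and of its protease Ddi2 in each sample (points), with group means (bars, from 0) and SD (error bars; n = 3, 3, 3 and 4). Sel1l and Syvn1 are highest in WT tunicamycin 1 and 3, while Nfe2l1 and Ddi2 stay between 11.3 and 33.2 CPM in all samples.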

How the data were processed

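RNA of 14 mouse liver libraries was sequenced. Deposited counts are whole reads in the gene count layout of STAR, per the file headers, and the sense-strand column was used (99.5 to 99.6% of stranded reads). The authors' FPKM table carries Cufflinks column names, per the file headers. Trimmomatic, STAR, Cufflinks and mm10 are named in the submitters' processing notes, and the annotation is not given in the sources used here. No column of sample values was left unused (0 columns).

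LKO vehicle 3 and 4 gave a chi-square of 1.12 per degree of freedom over genes with at least 20 reads, against 3.38 to 25.9 for the other 17 pairs, and were summed; whether they came from 1 mouse is not stated. Counts were fitted with edgeR 4.0.16 in R 4.3.3 (TMM, filterByExpr with a minimum of 10 reads, quasi-likelihood test, 1 mean per group, 13 samples, 9 residual degrees of freedom), with Benjamini-Hochberg adjustment over 9644 genes. CPM use TMM library sizes that count Rn45s reads, with a prior count of 2 for log2 values. Intervals are 95%. Alternatives used DESeq2 1.42.0 (Wald test) and limma 3.58.1 on log2(FPKM + 1) for genes with a mean of at least 1. Steps were tested on simulated data. Near copies were searched with blastn 2.17.0 among GENCODE M21 transcripts.

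Members and lists were chosen with earlier results of these data known. Values by sample are given for members called, the 2 with the smallest p in each comparison, the gene with the highest mean CPM in each role, the 3 catalytic subunits and Pomp. Psmc3ip and Psme2b do not match the naming rule in full.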

Additional observations from a re-analysis of the deposited data

How the results depend on the processing

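No member was called in any of the 130 combinations of 26 alternatives and 5 comparisons (13 of the alternatives left out 1 sample each). The smallest adjusted p was 0.0503, for Psma7 with tunicamycin in WT without WT tunicamycin 3. Of the 130 medians over the members, 110 moved by less than 0.064 on the log2 scale, the SD of the medians of single samples. The other 20 were as follows, and the cause was not tested. With tunicamycin in WT the median of 0.06 went to -0.123 with total counts, -0.0699 with log2(FPKM + 1), -0.0852 with log2(FPKM + 0.1), -0.0609 with FPKM and no filter, and -0.0699 without the FPKM column of LKO vehicle 2. Fits that left out 1 sample gave -0.0083 (without WT tunicamycin 3) to 0.087 (without WT tunicamycin 1). For LKO against WT with vehicle, the same 4 FPKM settings turned -0.11 into -0.0313, -0.0334, -0.0189 and -0.0457. For LKO against WT after tunicamycin, -0.18 became -0.0255 with total counts and 0.0465, 0.0506, 0.0465 and 0.0465 with FPKM. The interaction went from -0.08 to 0.0704 with total counts and to 0.0343, 0.0398, 0.0264 and 0.0662 with FPKM. The medians of all genes moved too, with total counts to -0.18 (tunicamycin in WT), 0.14 (LKO against WT after tunicamycin) and 0.13 (interaction), and with log2(FPKM + 1) to -0.10, 0.07 and 0.05. Members minus all genes were 0.05, -0.16 and -0.05 with TMM, 0.05, -0.17 and -0.06 with total counts, 0.03, -0.02 and -0.02 with log2(FPKM + 1), and -0.06, 0.05 and 0.03 on unfiltered FPKM. The FPKM column of LKO vehicle 2 summed to 99386 and the others to 156509 to 169701, a setting added after seeing the data.

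Pairing by the replicate numbers of the labels was not seen. Same-numbered samples correlated at -0.187 to 0.185 in their deviations from the group means, and differently numbered samples at -0.240 to 0.327. With so few samples a group, these values cannot exclude pairing. A fit with the replicate number as a block called 0 members, and gave medians of 0.06, -0.04, -0.12, -0.21 and -0.09 in the 5 comparisons; both calls of Sel1l were lost in it. Over all genes, the number of calls with tunicamycin in WT ran from 0 to 615 over the alternatives, the highest without WT tunicamycin 3. It ran from 0 to 153 with tunicamycin in LKO and from 0 to 84 for LKO against WT with vehicle, both highest with no filter on low counts, from 0 to 261 for LKO against WT after tunicamycin and from 0 to 3 for the interaction. Low counts limited Psmb5, Psmg1, Psmg2, Psmg4 and Psmd10, which had at most 35 reads in any sample. For Psmb5, reads that also fit its copy Gm3375 are not in the counts, and their part in the low number was not tested.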
